A study of Drosophila melanogaster with 6 samples.

Results

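The 9 genes described here encode spectrins, ankyrins and very large proteins that tie the cytoskeleton together, and they were chosen by symbol: futsch, shot, Ank, Ank2, alpha-Spec, beta-Spec, kst, Msp300 and tau. All 9 of 17453 listed genes were found by their FlyBase symbols, and all 9 passed the filter on low counts that left 11670 genes to test. The libraries were made from heads of adult flies, males and females pooled, of the genotype y1 w*; P{PTT-GA}Zn72D[CA07703], a protein trap that puts GFP into Zn72D, a zinc finger RNA-binding protein. Both groups came from these flies: 3 libraries of RNA recovered with an antibody against GFP (RIP) and 3 of RNA from the lysate before precipitation (input), numbered 1 to 3 in each group. The age of the flies is not given in the sources used here, no precipitation from untagged flies was analysed here, and every change below is relative to input.

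Spectrin is a long, flexible rod built from alpha and beta chains, which pair side by side and then end to end to form a net under the plasma membrane, cross-linked by actin. Ankyrins are adaptors that fasten this net to membrane proteins such as ion channels and adhesion molecules, and in fly neurons the giant forms of Ank2 are needed to keep the microtubules of synaptic terminals in place. The remaining proteins bind microtubules directly (futsch, tau), bridge actin and microtubules (the spectraplakin shot) or anchor nuclei and organelles to the cytoskeleton (the nesprin Msp300).

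The input libraries held 34401553 to 38331703 expected counts and the RIP libraries 28070655 to 38182015, of which 5864723 to 8182107 and 25434735 to 36377598 were not from rRNA genes. The replicate 3 libraries of both groups stood apart from those numbered 1 and 2: deviations from the group means correlated at 0.848 between input 3 and RIP 3, and at -0.789 to -0.659 between a replicate 3 library and the others. Deviations within a group cancel out, so the negative values follow from replicate 3 standing apart in the same way in both groups. The sources do not say whether each number stands for its own collection of flies, and the p-values below therefore cover only the spread among these 6 libraries, which may be technical. Of 5 neuronal markers, 4 (elav, brp, nSyb and Syt1) rose in RIP, and their summed level was 1463 to 1933 counts per 1000000 (CPM, scaled by TMM) in input and 3294 to 4664 in RIP. Of 5 muscle markers, 3 (Mlc2, up and wupA) fell and none rose, with a summed level of 3579 to 4091 CPM in input and 2538 to 2789.9 in RIP. None of the 4 photoreceptor, 4 glial and 5 fat body markers passed the test, and no marker of any list was at 0. Over all tested genes 20.2% rose and 17.1% fell. Fold changes rose with transcript length, as described further on, and the marker values are not adjusted for it. Input is RNA from the lysate before precipitation, so a shift of markers between the groups does not measure numbers of cells.

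Most of these RNAs were more abundant in RIP than in input. Of the 9 genes, 7 rose (edgeR quasi-likelihood test, adjusted p under 0.05 over all tested genes), 2 did not pass and 0 fell, where 20.2% of all tested genes rose and 17.1% fell. The increases were 1.47-fold to 1.97-fold, and the median log2 fold change of the 9 was 0.60, against 0.06 for all tested genes. In 8 of the 9 the lowest RIP library lay above the highest input library, which was so for 26.5% of tested genes. These RNAs are long, and long RNAs as a class were higher in RIP, as described further on. A block on the replicate number treats same-numbered libraries as pairs, only because they deviated together in these data. With that block all 9 were called higher (33.3% of tested genes), and without both replicate 3 libraries 8 were (24.7%), all but tau. With rRNA genes left out before scaling 4 were (15.6%), namely Ank2, kst, futsch and alpha-Spec. In none of these 3 fits was any of the 9 called lower, against 27.9%, 28.8% and 21.4% of tested genes. Scaled by library size alone, 9083 tested genes rose and 169 fell, in place of 2361 and 1990; rRNA took 78.1% to 83.0% of input counts and 4.73% to 9.39% of RIP counts. Neurons express these genes, and the neuronal markers rose too, as given above; their part in the results was not tested.

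Of the microtubule-associated proteins, futsch (FBgn0259108; dm6 chromosome X, 1409069 to 1453686) encodes the fly relative of the vertebrate MAP1B family, which shapes the microtubule loops of synaptic boutons. Its RNA stood at 1799.9, 1866 and 2483 CPM in the 3 input libraries and at 3323, 3197 and 3555 in RIP. Every RIP library was above every input library, and input 3 was the highest of the inputs. The mean rose from 2049.8 ± 377 to 3358 ± 182 CPM (SD, n = 3), a log2 fold change of 0.71 ± 0.16 (SE; edgeR adjusted p = 0.0165). The call was lost without input replicate 1 (adjusted p = 0.0680) and without input replicate 2 (adjusted p = 0.0846). The exons of futsch share 1186 bases with Gr2a on the same strand, but Gr2a held at most 1 count in any library.

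The RNA of tau (FBgn0266579; chromosome 3R, 27639886 to 27656996), which encodes the fly homologue of the microtubule-binding protein Tau, was the shortest of the 9, with a mean transcript length of 2057.5 bases. It had 54.3, 60.1 and 75.6 CPM in input and 66.6, 69.0 and 79.1 in RIP. The groups overlapped, since input 3 exceeded RIP 1 and RIP 2. The difference, 0.18 ± 0.15 on the log2 scale, was within the spread of the libraries (edgeR adjusted p = 0.416). With the replicate number as a block it was called higher at a similar value (log2 0.19, adjusted p = 0.0463, within 2.53e-06 to 0.958 over 18 alternatives), and without RIP replicate 3 its value was -0.0087.

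Both spectrin chains were measured at similar levels. alpha-Spec (FBgn0250789; chromosome 3L, 1778485 to 1795328), the single alpha chain of the fly, had 417, 443 and 505 CPM in input and 632, 704 and 729 in RIP. The groups were separate, and the log2 fold change was 0.60 ± 0.12 (edgeR adjusted p = 0.00942). The call was narrowly lost without input replicate 2 (adjusted p = 0.0553) and without RIP replicate 2 (adjusted p = 0.0558). beta-Spec (FBgn0250788; chromosome X, 17657372 to 17669371), the conventional beta chain that also carries the ankyrin-binding site, had 459.96, 488 and 576 CPM in input and 616, 675 and 667 in RIP. Here too all RIP values exceeded all input values, but by less, and the log2 fold change of 0.36 ± 0.12 did not pass (edgeR adjusted p = 0.0575). With the replicate block beta-Spec was called higher (log2 0.37, adjusted p = 0.000153, within 2.04e-06 to 0.212 over 18 alternatives), and likewise without input replicate 3 (log2 0.48, adjusted p = 0.0186). Of the 18 alternatives 5 called it higher and 3 lower.

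The other beta chain is encoded by kst (FBgn0004167; chromosome 3L, 3336860 to 3368133), the beta-Heavy spectrin that pairs with the same alpha chain at the apical side of epithelial cells. Its RNA had 314, 349 and 387 CPM in input and 595, 605 and 516 in RIP. RIP 3 was the lowest of the precipitates and still above every input. The log2 fold change was 0.71 ± 0.12 (edgeR adjusted p = 0.00558), and kst was called higher in each of the 6 fits that left out 1 library (adjusted p up to 0.0344). Exons of alpha-Spec share 130 bases with dlt on the same strand and 96 with asRNA:CR45834 on the other, and those of beta-Spec share 164 with CG12990 on the other strand; these genes held at most 0.998% of the count of their spectrin neighbour.

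Of the ankyrins, Ank2 had the highest fold change of the 9 genes. Ank2 (FBgn0261788; chromosome 3L, 7655389 to 7718395) is the neuronal ankyrin, and it stood at 1422, 1624.5 and 1721 CPM in input and at 3283, 3299 and 2804 in RIP. The groups were far apart, and RIP 3 was the lowest precipitate. The mean rose 1.97-fold, from 1589 ± 153 to 3129 ± 281 CPM (SD, n = 3; log2 0.98 ± 0.14, edgeR adjusted p = 0.00269), and the call held in each of the 6 fits without 1 library (adjusted p up to 0.0209). Its fold change was above that of 91.5% of all tested genes.

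The reads of Ank2 are shared with a neighbour. CG44195, a protein-coding gene on the same strand, has 5874 exon bases in common with Ank2 and took 15262 counts in input 3 against 33431 for Ank2, and up to 51.9% of the Ank2 count in a library. How the authors' counting divided these reads is uncertain, since the annotation release and strand setting are not known here. Within that counting, the posterior standard deviation that the deposited tables give for the Ank2 count was 61.3 to 276 counts, at most 0.262% of the count, and at most 5.21 counts for any of the other genes. CG44195 itself rose (log2 0.62 ± 0.12, edgeR adjusted p = 0.00908). With the counts of CG44195 added to Ank2, an alternative chosen after seeing the data, the log2 fold change of the sum was 0.87 ± 0.14 (edgeR adjusted p = 0.00424, within 1.77e-16 to 0.673 over 18 alternatives).

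The widely expressed ankyrin gene Ank (FBgn0011747; chromosome 4, 115074 to 129849) had 139, 119.9 and 178 CPM in input and 212, 196 and 232 in RIP. The groups did not overlap, and input 3 came close to RIP 2. The log2 fold change was 0.55 ± 0.16 (edgeR adjusted p = 0.0385), and the call was lost in 5 of the 6 fits without 1 library (adjusted p up to 0.131), all but the one without input 3. It was also lost with RLE scaling (log2 0.52, adjusted p = 0.0704) and with rRNA genes left out before scaling (adjusted p = 0.0813).

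The spectraplakin shot (FBgn0013733; chromosome 2R, 13864237 to 13942110) binds actin at one end and microtubules at the other. Its RNA had 1127, 1257 and 1298 CPM in input and 1860.5, 2013 and 1579 in RIP. All RIP libraries were higher, RIP 3 by the smallest margin, and the log2 fold change was 0.57 ± 0.14 (edgeR adjusted p = 0.0192). The call was lost without input replicate 1 (adjusted p = 0.0702), input replicate 2 (0.0729) and RIP replicate 2 (0.0643), and with rRNA genes left out before scaling (0.0570).

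The nesprin gene Msp300 (FBgn0261836; chromosome 2L, 5100877 to 5207002) spans 106126 bases and had the most counts of the 9. It stood at 3284, 3709.9 and 3472 CPM in input and at 5684, 6033 and 4198 in RIP. RIP 3 again lay lowest, well below the other precipitates and above all inputs. The log2 fold change was 0.60 ± 0.18 (edgeR adjusted p = 0.0380), and only the fit without RIP replicate 3 kept the call among the 6 fits that left out 1 library (adjusted p 0.00712 there and up to 0.130 in the others). Msp300 took 0.824% to 1.03% of input counts outside rRNA, which gave it rank 4 among all such genes in each input library, and 0.785% to 1.28% in RIP, where it held ranks 2, 1 and 4. Of 3 annotated small noncoding RNA genes inside its exons, the one with the most reads had 5.52 to 11.5 counts in input and 40.5 to 79.2 in RIP, at most 0.0203% of the Msp300 count. Muscle expresses Msp300 as well, and 3 of the 5 muscle markers fell, as given above. The long muscle genes sls and bt rose as Msp300 did (log2 0.68 and 0.52, edgeR adjusted p = 0.0174 and 0.0321). Obsc, also long, did not pass (log2 -0.01, edgeR adjusted p = 0.952). The part of muscle in the result was not tested.

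**Figure D1:**
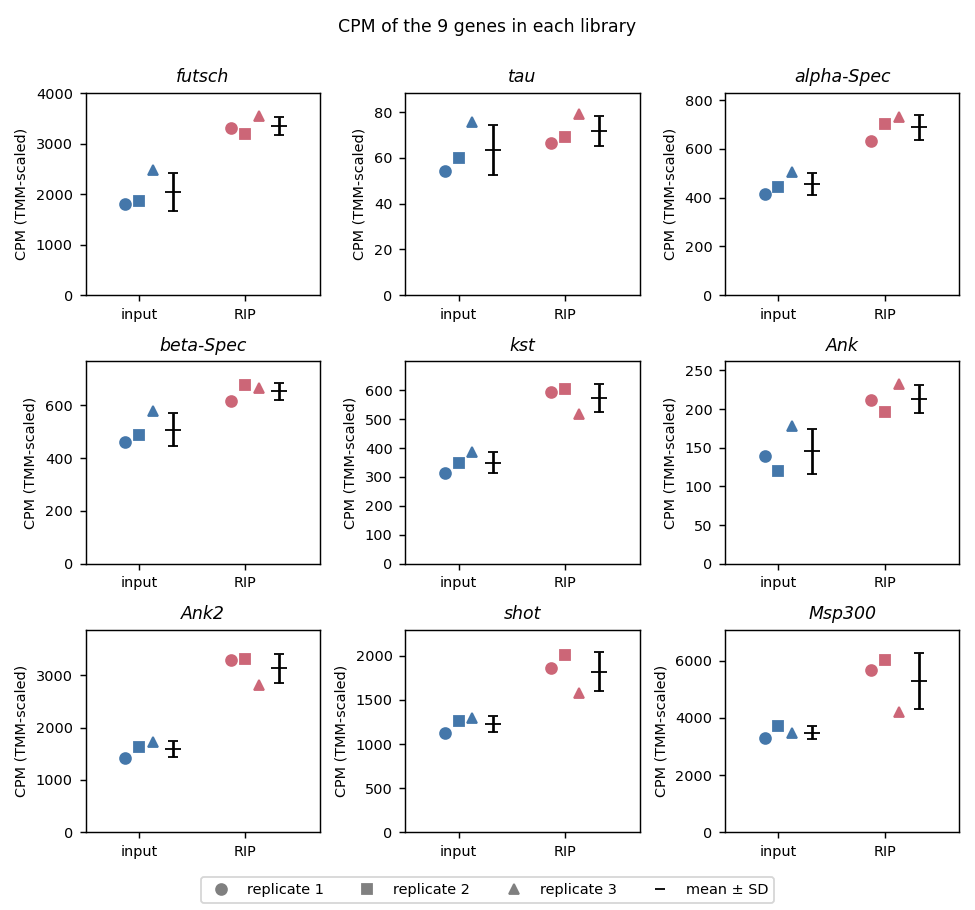
Normalised read counts (CPM, y axes from 0) of the 9 genes in the 3 input (blue) and 3 RIP (red) libraries; symbols mark the replicate number and black bars the mean ± SD (n = 3). In every gene but tau all RIP points lie above all input points, and in kst, Ank2, shot and Msp300 RIP replicate 3 is the lowest precipitate.

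Ratios of same-numbered libraries were smallest for replicate 3 in all 9 genes. For Msp300 the log2 ratio of RIP to input CPM was 0.79, 0.70 and 0.27 in replicates 1, 2 and 3, for shot 0.72, 0.68 and 0.28, and for Ank2 1.21, 1.02 and 0.70. For alpha-Spec it ranged less, at 0.60, 0.67 and 0.53. Together the 9 genes took 2.53% to 2.74% of input counts outside rRNA, and 3.40% and 3.57% of those counts in RIP 1 and RIP 2 but 2.69% in RIP 3, which falls inside the range of the inputs. The replicate 3 libraries also differed in make-up. rRNA took 9.39% of counts in RIP 3, 4.73% in RIP 1 and 5.54% in RIP 2. Mean fragments were 207 bases in RIP 3 and 195 in RIP 1 and RIP 2. They were 162 bases in input 3, 172 in input 1 and 171 in input 2. The part of these differences in the ratios was not tested.

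Ratios between 4 pairs of genes were taken within each library, where the scaling between libraries drops out. There were 0.906, 0.908 and 0.876 alpha-Spec counts for each beta-Spec count in input and 1.03, 1.04 and 1.09 in RIP. The groups did not overlap, and the ratio was 1.18-fold higher in RIP (exact two-sided permutation test p = 0.1, adjusted 0.2 over 4 pairs). With 3 against 3 libraries 0.1 is the smallest p this test can give. For each tau count the input libraries held 33.2, 31.1 and 32.8 futsch counts, and the RIP libraries held 49.9, 46.3 and 44.97, again without overlap (1.45-fold; exact permutation p = 0.1, adjusted 0.2). The mean transcript lengths of futsch and tau are 21188 and 2057.5 bases. Other genes of their length classes had median log2 fold changes of 0.70 and 0.20, and the ratios were not adjusted for length.

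The other ratios overlapped between the groups. The ratio of Ank2 to Ank was 10.2, 13.5 and 9.70 in input and 15.5, 16.9 and 12.1 in RIP (1.33-fold; exact permutation p = 0.2, adjusted 0.267). The ratio of alpha-Spec to kst, its alternative partner, was 1.33, 1.27 and 1.31 in input and 1.06, 1.16 and 1.41 in RIP, lower than input in replicates 1 and 2 and higher in replicate 3 (log2 difference -0.11, exact permutation p = 0.4). The difference was -0.022 without RIP replicate 1 and -0.23 without RIP replicate 3.

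**Figure D2:**
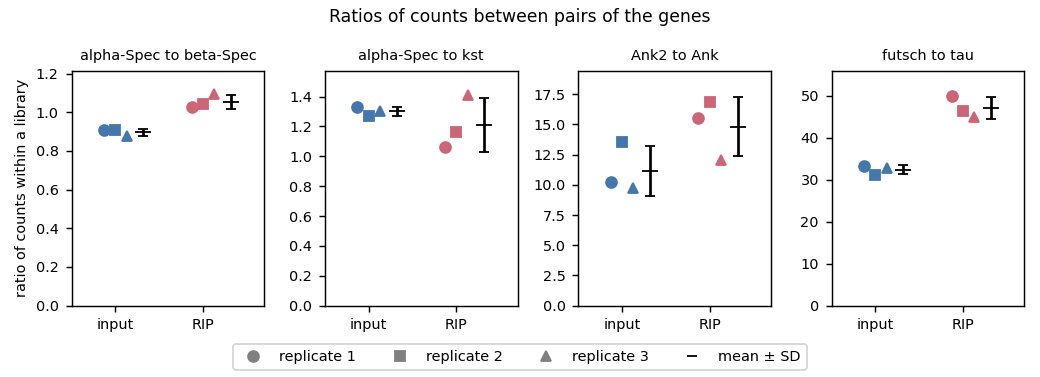
Ratio of the counts of 2 genes within each library (y axes from 0), for 4 pairs, in input (blue) and RIP (red); symbols mark the replicate number and black bars the mean ± SD (n = 3). The alpha-Spec to beta-Spec and futsch to tau ratios do not overlap between the groups, and the other pairs do.

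Per length, the 9 RNAs differed less than their counts. Levels were compared in TPM, which divides counts by transcript length, each gene given as a percentage of the summed TPM of the 9 within its library. In input Msp300 (18.6% ± 1.92; SD, n = 3), futsch (17.5% ± 1.54) and Ank2 (16.1% ± 0.613) led, with ranges of neighbours that overlapped for the first pair and the next. They were followed by beta-Spec (12.1% ± 0.304), alpha-Spec (10.2% ± 0.0718) and shot (9.66% ± 0.381), whose ranges were separate from each other. The lowest were tau (5.97% ± 0.469), Ank (5.12% ± 0.736) and kst (4.79% ± 0.0748), where tau overlapped with Ank, and Ank with kst.

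In RIP Ank2 came first, at 22.0% ± 1.03 of the summed TPM, and its lowest library was above the highest of futsch (18.2% ± 1.51), while futsch and Msp300 (17.0% ± 2.53) overlapped. beta-Spec stood at 9.94% ± 0.691, alpha-Spec at 9.80% ± 1.01 and shot at 8.80% ± 0.623, of which each overlapped with the next except in the last step, from shot to kst (5.00% ± 0.226). Ank (4.88% ± 0.654) overlapped with kst above it and with tau (4.41% ± 0.658), the lowest. In TPM the ratio of alpha-Spec to beta-Spec was 0.849 ± 0.0189 in input and 0.985 ± 0.0327 in RIP.

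The estimated transcript length of 3 of the genes differed between input and RIP. In the authors' tables the length of a gene is the mean over its transcripts, weighted by their estimated abundance, so it moves when the mix of transcripts moves. It was tested with limma over 4319 genes whose length varied. Of the 9 genes, 2 were longer in RIP (19.6% of the genes in this test were, a similar share) and 1 was shorter (5.23%).

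Ank2 RNA in RIP was the shorter one. Its 20 transcripts range from 2261 to 42128 bases in the annotation, and its weighted length in the input libraries was 17587, 17902 and 18192 bases. The RIP libraries had 16369.8, 16562 and 16267 bases, all below every input, and the mean fell by 1494 bases (log2 difference -0.13 ± 0.01 SE, limma adjusted p = 0.0072). The length of CG44195, which shares exons with it, is a constant 6153 bases, so the division of reads between these genes can enter the estimate for Ank2. The call ended without both replicate 3 libraries (adjusted p = 0.0521, the highest of 10 alternatives).

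Msp300 RNA was longer in RIP. Its 11 transcripts range from 2610.0 to 43121 bases, and the weighted length in the input libraries was 33863, 33689 and 34344 bases. The RIP libraries had 35472, 35672 and 35876 bases. The groups were 1708 bases apart on average and did not overlap (log2 difference 0.07 ± 0.01, limma adjusted p = 0.00811), and the call held in each of 10 alternatives (adjusted p up to 0.0361). alpha-Spec moved by 98.5 bases, from 8122 ± 20.2 to 8221 ± 2.87 (SD, n = 3; limma adjusted p = 0.0104), with calls lost without RIP replicate 1 (adjusted p = 0.0555) and without both replicate 3 libraries (0.0659, the highest of 10 alternatives). shot, with 22 transcripts of 13661 to 27842 bases, had input lengths of 22882, 23117 and 22928 bases and RIP lengths of 24064, 23676 and 23327, which did not overlap and did not pass (log2 0.04 ± 0.01, limma adjusted p = 0.0677); without RIP replicate 3 it passed (adjusted p = 0.0392).

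The other genes held nearly the same weighted length. The length of Ank fell by 48.9 bases on average in RIP without overlap of the groups and without passing the test (limma adjusted p = 0.104), and futsch, beta-Spec, kst and tau overlapped (adjusted p from 0.465 to 0.891). The median of the log2 length difference over all genes in that test was 0.00, while 19.6% were called longer and 5.23% shorter. Sequenced fragments were longer in RIP, with means of 195 to 207 bases against 162 to 172 in input as read from the difference of length and effective length. Their part in the length estimates was not tested.

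**Figure D3:**
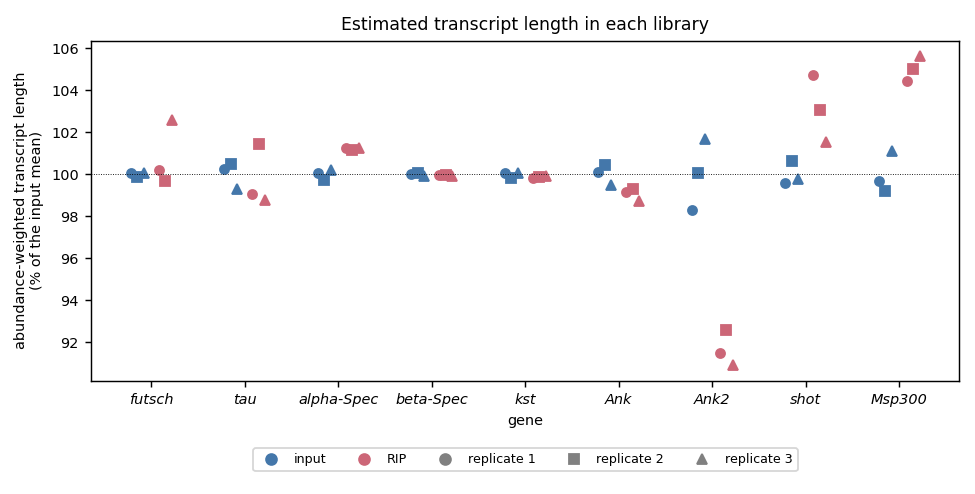
Abundance-weighted transcript length of each gene in each library as a percentage of its input mean (y axis; input blue, RIP red, symbols mark the replicate number). RIP values of Ank2 all lie below input and those of Msp300, shot and alpha-Spec all above, while beta-Spec and kst stay close to their input means.

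The fold changes of these genes were close to those of other RNAs of their length. Over 11670 tested genes the log2 fold change rose with mean transcript length (Spearman's rho 0.64 across genes, which share the same 6 libraries; a description without a test). By mean length Msp300, shot, futsch and Ank2 held ranks 4, 6, 8 and 11 among all RNAs tested. Of the 112 other genes of 10000 bases or more, 65.2% rose and their median log2 fold change was 0.70, with quartiles of 0.45 and 1.03. All 5 members of that class lay between these quartiles: shot at 0.57, Msp300 at 0.60, kst and futsch at 0.71 and Ank2 at 0.98.

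Of 879 other genes from 5000 to 10000 bases, 75.5% rose, with a median of 0.72 and quartiles of 0.44 and 1.07. Ank (0.55) and alpha-Spec (0.60) lay inside these quartiles and beta-Spec (0.36) below the lower one. In the class of tau, 2000 to 3000 bases, 18.3% of 2337 other genes rose and the median was 0.20, near the 0.18 of tau.

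With the length trend taken out by an offset for each gene and library, the direction of most of the genes turned. None of the 9 was then called higher (10.1% of tested genes were) and 2 were called lower (10.5%), namely beta-Spec (log2 -0.43 ± 0.07, edgeR adjusted p = 0.0132) and shot (-0.39 ± 0.08, adjusted p = 0.0209). Ank2 stood at 0.06 and tau at 0.18, and the other genes between -0.39 and -0.12. Over 18 alternatives, fits of both signs included, the adjusted p of beta-Spec ranged from 2.04e-06 to 0.212, with 5 calls higher and 3 lower. That of shot ranged from 6.26e-07 to 0.0845, with 11 calls higher and 2 lower. The curve is not the class median. The fold change of kst, 0.71, was near the median of 0.70 for the other genes of 10000 bases or more. With the trend removed it was -0.18, and -0.16 with the curve held flat past 10000 bases. A value below 0 here therefore does not by itself mean a rise smaller than in most RNAs of that length. In the main fit shot (0.57) and Msp300 (0.60) did lie below that median of 0.70, and futsch (0.71) did not. Ank (0.55), alpha-Spec (0.60) and beta-Spec (0.36) lay below the median of 0.72 for other genes from 5000 to 10000 bases. The curve is also thinly supported at its end, where 9 tested genes exceed 20000 bases and 3 of them are Msp300, shot and futsch. With the curve held flat past 10000 bases, chosen after seeing the data, shot was no longer called (-0.31, adjusted p = 0.0845) and beta-Spec was (-0.43, adjusted p = 0.0134). With the replicate block as well as the length trend removed, tau was called higher (27.4% of tested genes) and beta-Spec, shot, Msp300, alpha-Spec and futsch lower (23.3%).

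**Figure D4:**
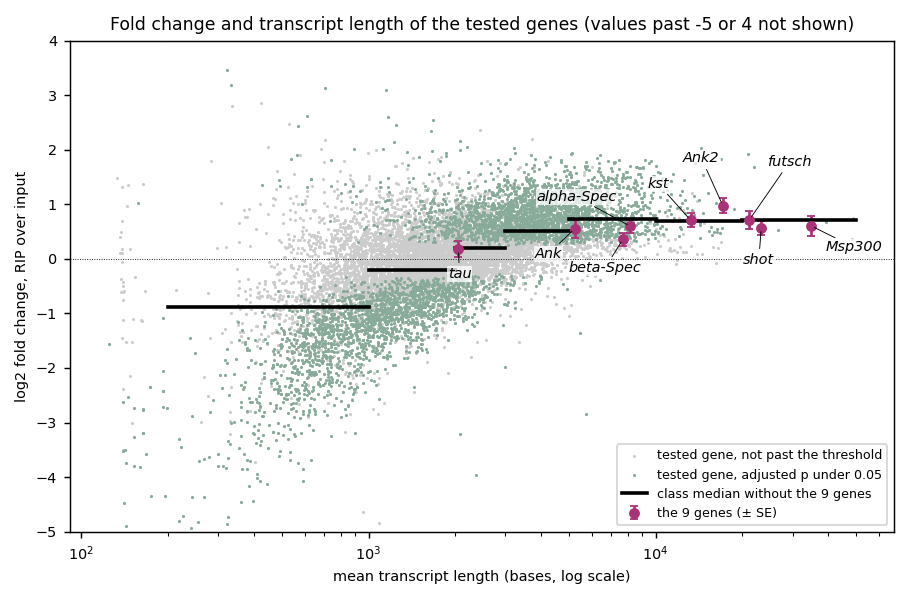
Log2 fold change of RIP over input (y axis) against mean transcript length in bases (x axis, log scale) for the tested genes, grey where the test was not passed and green where it was; black lines are medians of length classes without the 9 genes, which are shown in purple with their SE. The purple points lie near the class medians, Ank2 farthest above and beta-Spec farthest below. Ank, alpha-Spec, shot, Msp300 and tau also lie below theirs, and kst and futsch lie almost on them. Outside the y axis fall 25 genes.

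**Figure D5:**
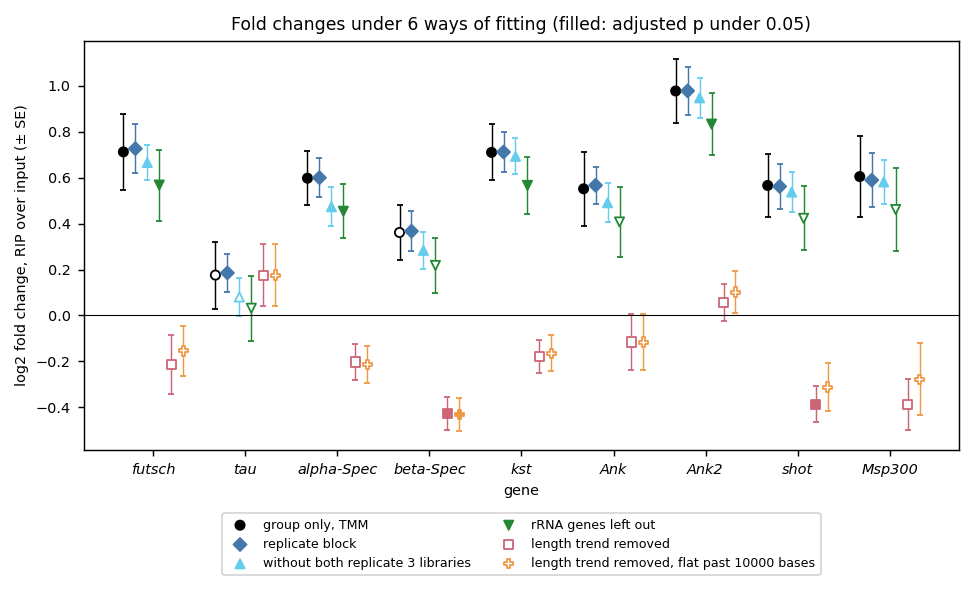
Log2 fold change (y axis, ± SE) of the 9 genes (x axis) under 6 ways of fitting, filled where the adjusted p is under 0.05. The first 4 ways give positive values for every gene, and with the length trend removed 7 genes fall below 0 while Ank2 and tau stay above it.

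Genes that work beside these proteins were counted in 3 lists, again against 20.2% of tested genes higher and 17.1% lower. The median transcript length of the lists was 3648 to 4192 bases. Of the 1913 tested genes from 3000 to 5000 bases, 50.9% rose and 23 genes fell. Of 15 partners of the membrane skeleton, 6 rose and 0 fell (median log2 0.27). hts, the fly adducin that caps actin at spectrin junctions, rose 1.69-fold (84.8 ± 5.89 to 143 ± 2.06 CPM; SD, n = 3; edgeR adjusted p = 0.00132). Nrg, the neuroglian adhesion molecule that binds ankyrin, rose 1.73-fold (89.5 ± 11.6 to 155 ± 10.2 CPM; edgeR adjusted p = 0.00356). With the replicate block 8 of the 15 rose and 1 fell, where 33.3% of tested genes rose and 27.9% fell. With the length trend removed 2 of the 15 rose and 5 fell (median -0.06), where 10.1% of tested genes rose and 10.5% fell.

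Of 20 microtubule-associated and severing proteins, kinases of such proteins included, 9 rose and 1 fell (median log2 0.34). Map205, a microtubule-associated protein, rose 1.79-fold (edgeR adjusted p = 0.00158), and pigs, which carries a GAS2 domain like that of shot, 1.77-fold (166 ± 15.2 to 294 ± 22.5 CPM; edgeR adjusted p = 0.00225). Jupiter, a small microtubule-binding protein with a mean transcript of 1572 bases, fell from 66.1 ± 5.42 to 47.4 ± 6.23 CPM (log2 -0.48 ± 0.13, edgeR adjusted p = 0.0257). With the replicate block 12 of the 20 rose and 1 fell (33.3% and 27.9% of tested genes). With the length trend removed 0 of the 20 rose and 2 fell (median 0.03), against 10.1% and 10.5% of tested genes, so that the count lower was near the background.

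Of 15 large linkers and nuclear envelope or muscle genes, 9 rose and 0 fell (median log2 0.46). Dg, the dystroglycan receptor, rose 1.88-fold (58.8 ± 4.72 to 110.3 ± 5.02 CPM; edgeR adjusted p = 0.000995), and Nrk, a receptor tyrosine kinase that is not a linker, 1.97-fold at a low level (4.18 ± 0.831 to 8.24 ± 0.373 CPM; edgeR adjusted p = 0.00576). With the replicate block 10 of the 15 rose and 2 fell (33.3% and 27.9% of tested genes), and with the length trend removed 0 of the 15 rose and 6 fell (median -0.28; 10.1% and 10.5% of tested genes).

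The genes with the most similar course over the 6 libraries were sought among 4463 others with a mean of 10 CPM or more, by the root mean square difference of log2 CPM after centring each gene on its mean. For Ank2, the highest of the 9, these were Stacl, gpp and Pif1A (0.041 to 0.053), with fold changes of 0.98 to 1.04 on the log2 scale. For alpha-Spec, the middle one, they were CG33144, Crag and hang (0.026 to 0.034). For tau they were hoe2, Xrp1 and Mer (0.031 to 0.034).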

How the data were processed

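RNA of 3 RIP and 3 input libraries of fly heads was compared. Against build dm6, the submitters' processing notes list RSEM 1.2.30, STAR 2.5.4b, Trim Galore 0.4.5 and DESeq2 1.20.0. For the strand setting and annotation release, the sources used here give no entry. The authors deposited, per the file headers, expected counts with their posterior standard deviations, TPM, and a length and effective length for each gene, all from RSEM. TPM, as the authors deposited it, includes rRNA in its sum.

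Names and dm6 positions were taken from the Ensembl annotation; 17179 IDs matched it or its name table, 197 matched by transcript and 77 did not match. Expected counts were rounded, filtered with filterByExpr, scaled by TMM over all genes and compared by the quasi-likelihood test of edgeR (R 4.3.3, edgeR 4.0.16), group as the only term, Benjamini-Hochberg at 0.05 over all 11670 genes; standard errors come from fold change and F. TMM factors were 0.478 to 0.608 in input and 1.69 to 2.01 in RIP, so a fold change is relative to most other genes. Weighted length was tested on the log2 scale with limma 3.58.1 (mean CPM of 5 or more). Ratios used exact permutation tests. The alternative in TPM was log2(TPM + 1) with limma. Both fits were tested on simulated data.

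Same-numbered libraries of input and RIP deviated together (correlations 0.665, 0.604 and 0.848), and on that ground alone they were treated as pairs. Libraries 1 and 2 correlated as well across numbers (0.604 and 0.626). Since deviations within a group cancel out, these values do not show a pairing of libraries 1 and 2 apart from the shared course of replicate 3.

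The genes, lists and tests were chosen with earlier results of these data known. Named were the 9 genes, genes whose exons overlap theirs, from each list the 2 called genes with the smallest p in each direction, and the 3 nearest profiles of 3 genes. The muscle genes sls, bt and Obsc were added after seeing the data, for comparison with Msp300. Alternatives were RLE scaling, library size, rRNA genes left out, no filter, DESeq2 1.42.0, TPM, the replicate block, the length trend removed (lowess, span 0.3), and leaving out libraries.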

Additional observations from a re-analysis of the deposited data

How the results depend on the processing

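The count of genes called higher, 7 of 9, became 6 with RLE scaling (Ank lost), 4 with rRNA genes left out before scaling (kst, Ank2, futsch and alpha-Spec), 0 with the length trend removed, 0 with its curve held flat past 10000 bases and 1 with the replicate block and the length trend removed; it ranged from 2 to 7 over the 6 fits without 1 library, with 3 without input replicate 1, 2 without input replicate 2 and 3 without RIP replicate 2. The count called lower, 0 of 9, became 2, 1 and 5 in those 3 length-adjusted fits. With the length trend removed, with the replicate block added, and with the flat curve, the log2 fold changes were -0.21, -0.21 and -0.15 for futsch, -0.39, -0.39 and -0.31 for shot, -0.12, -0.11 and -0.12 for Ank, -0.20, -0.21 and -0.21 for alpha-Spec, -0.43, -0.43 and -0.43 for beta-Spec, -0.18, -0.18 and -0.16 for kst, and -0.39, -0.39 and -0.28 for Msp300. That of tau ranged from -0.0087 without RIP replicate 3 to 0.35 without input replicate 3. The alternative sets the reference to a smooth curve over length, which differs from the median of genes of the same length, as given above for kst. Which of length, recovery or library making lies behind the trend was not tested. With library size alone and in TPM the medians of all genes moved to 1.90 and 2.54, and the medians of the 9 to 2.43 and 3.86.

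The length test called 2 genes longer, and 1 without both replicate 3 libraries or without RIP replicate 1 (1 to 3 over the fits without 1 library); it called 1 shorter, and 0 without both replicate 3 libraries. No ratio changed sign in the alternatives tried, none of which removed the length trend. With that trend removed the log2 fold changes were -0.21 for futsch and 0.18 for tau, the opposite order to that of their ratio. The ratio of alpha-Spec to kst ranged from -0.23 to -0.022 without 1 library (RIP replicates 3 and 1). With the replicate block the differences, 0.23, -0.11, 0.41 and 0.54, are equal to those without it by construction, and the smallest p is 0.25. In the lists, the block gave counts higher and lower of 8 and 1 for membrane skeleton partners, 12 and 1 for microtubule proteins and 10 and 2 for large linkers (33.3% and 27.9% of tested genes). With the length trend removed, counts higher and lower were 2 and 5 for membrane skeleton partners (median -0.062), 0 and 2 for microtubule proteins (median 0.032) and 0 and 6 for large linkers (median -0.28; 10.1% and 10.5% of tested genes). The cause was not tested. In the test against input the block changed the calls of beta-Spec and tau and no other of the 9. Each gene had at least 893 counts in every library; how depth or the number of libraries limits the calls was not tested.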
